A study of Mus musculus with 12 samples.

Results

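The SR splicing factors are RNA-binding proteins that carry a domain rich in arginine and serine. They bind exonic enhancers and help the U1 and U2 snRNPs to find the splice sites. Their activity depends on phosphorylation by the SRPK and CLK kinases, and most of their genes control their own level through transcripts that are spliced into forms subject to nonsense-mediated decay (NMD). Sf3b1, a subunit of the U2 snRNP that contacts the branch point region, works next to them in the same step of intron recognition.

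The 10 members, Srsf1, Srsf2, Srsf3, Srsf4, Srsf5, Srsf6, Srsf7, Srsf9, Srsf10 and Srsf11, were taken by gene symbol. All 10 are among the 56748 genes of the count table. By gene name, 44 of the 19323 events of the splicing table belong to 8 of them, and none to Srsf3 or Srsf9. RNA came from G1E-ER4, a mouse line of proerythroblasts that make no GATA1 of their own. A fusion of GATA1 with the estrogen receptor replaces it, and adding estradiol sets off erythroid differentiation. Sf3b1 K700E/+ cells were made by CRISPR-Cas9 with a donor template and compared with isogenic Sf3b1 +/+ cells, with 3 libraries of each genotype after 24 h of estradiol. Libraries at 0 h, 3 of each genotype, were not analysed here. Each genotype is represented by 1 clone, so mutation and clone cannot be told apart, and the labels do not say whether libraries came from separate cultures. All p-values rest on the spread among these 6 libraries, which may be technical.

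Total gene counts were 44045337 to 50077827 in Sf3b1 K700E/+ and 38785471 to 40702174 in Sf3b1 +/+ libraries. Sf3b1 RNA was at 742 to 766 CPM (reads of the gene scaled to library size) in Sf3b1 K700E/+ and at 738 to 763 CPM in Sf3b1 +/+ libraries, and gene counts do not show the edited base. Gata1, whose reads can come from the fusion, was higher in Sf3b1 K700E/+ cells by 1.00 on the log2 scale (adjusted p = 9.43e-06, edgeR). Of 9 erythroid markers all were detected, at a summed 6590 to 9230 CPM in Sf3b1 K700E/+ and 6420 to 8000 CPM in Sf3b1 +/+ libraries, and replicate 1 was the lowest of both genotypes. Summed granulocyte and macrophage markers (13 genes, 3 without a read) were at 0.2 to 0.423 CPM against 11.5 to 37.7 CPM, and mast cell, basophil and eosinophil markers (6 genes, 1 without a read) at 1.02 to 3.5 CPM against 10.4 to 35.4 CPM. Of the first 13, only Lyz2, Cybb, Mmp8 and Adgre1 had enough reads to be tested, and all 4 were lower in Sf3b1 K700E/+ cells. The others were at 0.246 CPM or less in every library. Of the second list 4 genes were tested and 3 were lower. Most of its sum in Sf3b1 +/+ libraries came from Prg2, with means of 0.863 CPM in Sf3b1 K700E/+ and 21.8 CPM in Sf3b1 +/+ libraries. Summed megakaryocyte markers (6 genes, 2 without a read) were at 10.1 to 19.3 CPM against 17.3 to 28.6 CPM, and lymphoid markers (6 genes, 4 without a read) reached at most 0.0738 CPM in any library. The part of these differences in the results on SR genes was not tested.

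Srsf5 was lower in Sf3b1 K700E/+ cells, and the remaining 9 SR genes did not pass the test, so that 1 of 10 passed. Passing means an adjusted p under 0.05 in edgeR's quasi-likelihood test over all 12547 genes with enough reads. That threshold was met by 44.4% of the tested genes, and 23.1% passed as lower. None of the 10 had an absolute log2 fold change over 1 with an adjusted p under 0.05, which 10.3% of tested genes had. Their median log2 fold change was 0.02, against -0.01 over all tested genes, and the range was -0.34 to 0.15. Summed over the 10 genes, their RNA made up 3730 to 4150 CPM in Sf3b1 K700E/+ and 3730 to 4380 CPM in Sf3b1 +/+ libraries.

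Srsf5 (ENSMUSG00000021134), an SR protein that promotes exon inclusion through purine-rich enhancers, was at 638, 676 and 579 CPM in Sf3b1 K700E/+ replicates 1, 2 and 3. In Sf3b1 +/+ replicates 1, 2 and 3 it was at 830, 816 and 751 CPM. Every Sf3b1 K700E/+ library lay below every Sf3b1 +/+ library, an absence of overlap seen in 54.3% of tested genes and in 1 of the 10 SR genes. Means were 631 ± 48.8 and 799 ± 42.1 CPM (SD, n = 3), a log2 fold change of -0.34 (standard error, SE, 0.07, 95% interval -0.51 to -0.17, adjusted p = 0.00511, edgeR). Leaving out each library in turn kept the log2 fold change between -0.39 and -0.28, with adjusted p from edgeR between 0.00761 and 0.0283.

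**Figure D1:**
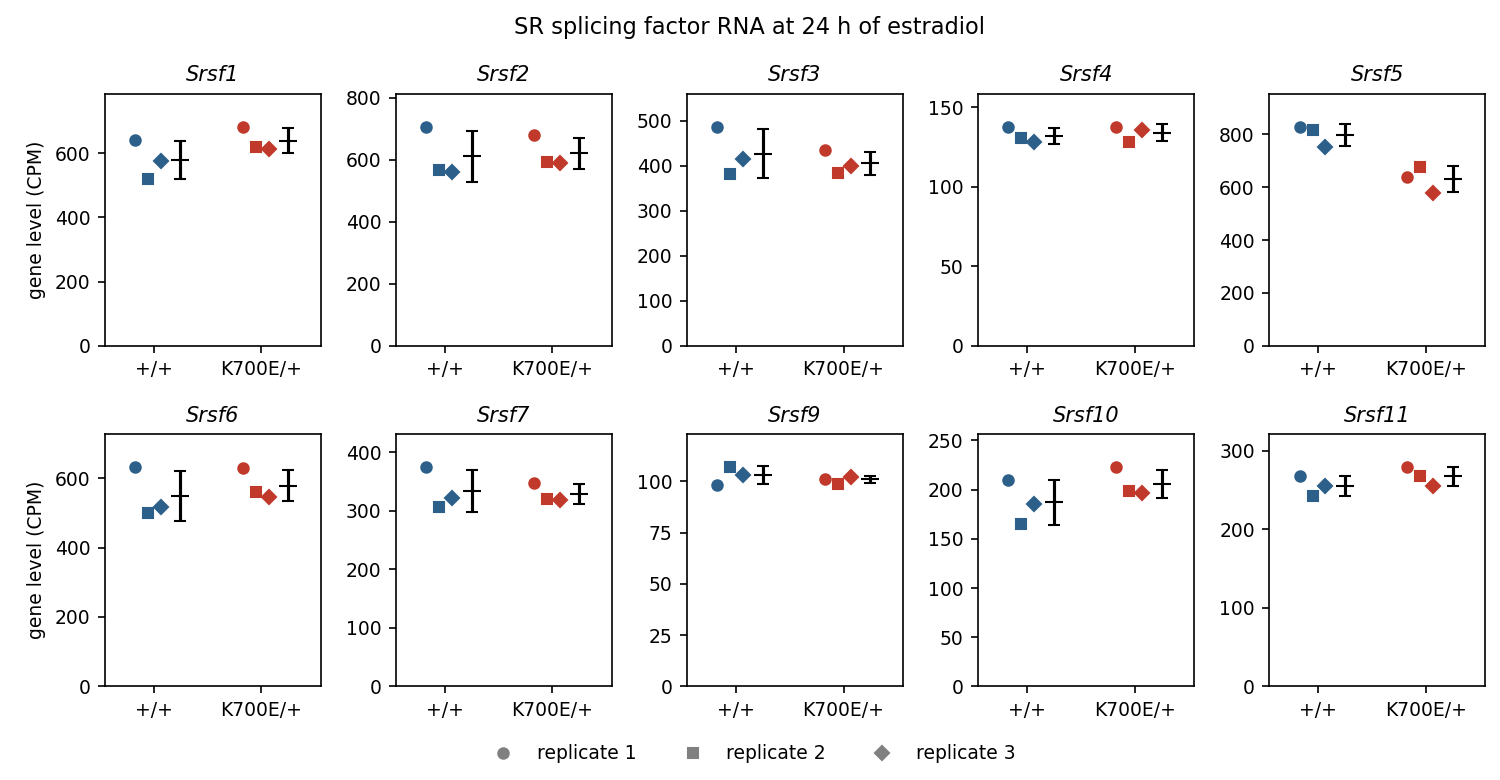
Gene level in CPM (vertical axes, from 0) of the 10 SR splicing factors in the 3 Sf3b1 +/+ (blue) and 3 Sf3b1 K700E/+ (red) libraries; symbols mark replicate numbers, and black bars the mean and SD. Srsf5 is the gene whose genotypes do not overlap, with 579 to 676 CPM below 751 to 830 CPM.

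Srsf1 and Srsf10 did not pass, but did so as higher in Sf3b1 K700E/+ cells when the replicate number entered the fit as a block. The numbers were taken to pair the libraries, since same-numbered libraries deviated together from their genotype means over 8771 genes (r of 0.63, 0.48 and 0.48). The labels state no pairing, and replicate 2 of one genotype also correlated with replicate 3 of the other (0.25 and 0.2). With the block 56.9% of tested genes passed, 3471 of the 12547 as higher and 3663 as lower. Srsf1 (ENSMUSG00000018379), the founding member that supports both constitutive and regulated splicing, was at 683, 619 and 613 CPM in Sf3b1 K700E/+ and at 640, 521 and 575 CPM in Sf3b1 +/+ replicates 1, 2 and 3. The groups overlap, while in 3 of 3 same-number pairs the Sf3b1 K700E/+ library was the higher one. Its log2 fold change was 0.14 (SE 0.08, adjusted p = 0.2, edgeR), and 0.15 with the block (adjusted p = 0.0314, edgeR). Srsf10 (ENSMUSG00000028676), which acts as a splicing repressor when dephosphorylated, was at 223, 199 and 197 CPM against 210, 165 and 185 CPM. These groups also overlap, and 3 of 3 pairs were higher in Sf3b1 K700E/+ cells. Its log2 fold change was 0.15 without the block (adjusted p = 0.23, edgeR) and with it (adjusted p = 0.0287, edgeR). Both genes also passed without Sf3b1 +/+ replicate 1, at 0.22 (adjusted p = 0.0286, edgeR) and 0.24 (adjusted p = 0.0251, edgeR), and without the replicate 1 libraries of both genotypes. Without Sf3b1 +/+ replicate 2 the values were 0.09 (adjusted p = 0.471, edgeR) for Srsf1 and 0.08 (adjusted p = 0.532, edgeR) for Srsf10, and without Sf3b1 K700E/+ replicate 1 they were 0.1 and 0.09. With the block, 3 SR genes passed, 2 of them higher and 1 lower.

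The 7 other genes had log2 fold changes between -0.08 and 0.07, and each 95% interval included 0. Srsf2, which binds exonic enhancers and is recurrently mutated in myelodysplastic syndromes, was at 588 to 679 CPM in Sf3b1 K700E/+ and 560 to 707 CPM in Sf3b1 +/+ libraries (log2 fold change 0.02, 95% interval -0.21 to 0.25). Srsf3 and Srsf7, small members that also recruit the export receptor Nxf1, had intervals of -0.29 to 0.13 and -0.21 to 0.16. Srsf3 was at 383 to 434 CPM against 381 to 487 CPM, and Srsf7 at 318 to 348 CPM against 306 to 375 CPM. Srsf4 and Srsf6 are larger members of the same subgroup as Srsf5. They had log2 fold changes of 0.02 (95% interval -0.12 to 0.15) and 0.07 (95% interval -0.15 to 0.29), and whether Srsf5 differed from them was not tested. The Srsf6 value ran from 0.01 without Sf3b1 K700E/+ replicate 1 to 0.19 without Sf3b1 +/+ replicate 1 (adjusted p = 0.0562, edgeR). Srsf4 was at 128 to 138 CPM in both genotypes, and Srsf6 at 545 to 629 CPM against 499 to 632 CPM. Srsf9, a short relative of Srsf1, was at 98.7 to 102 CPM against 98.4 to 107 CPM (95% interval of the log2 fold change -0.16 to 0.1). Srsf11, which binds U2af2, was at 255 to 279 CPM against 242 to 267 CPM (95% interval -0.07 to 0.21). Differences of any size within these intervals remain compatible with the values of the 3 libraries per genotype.

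**Figure D2:**
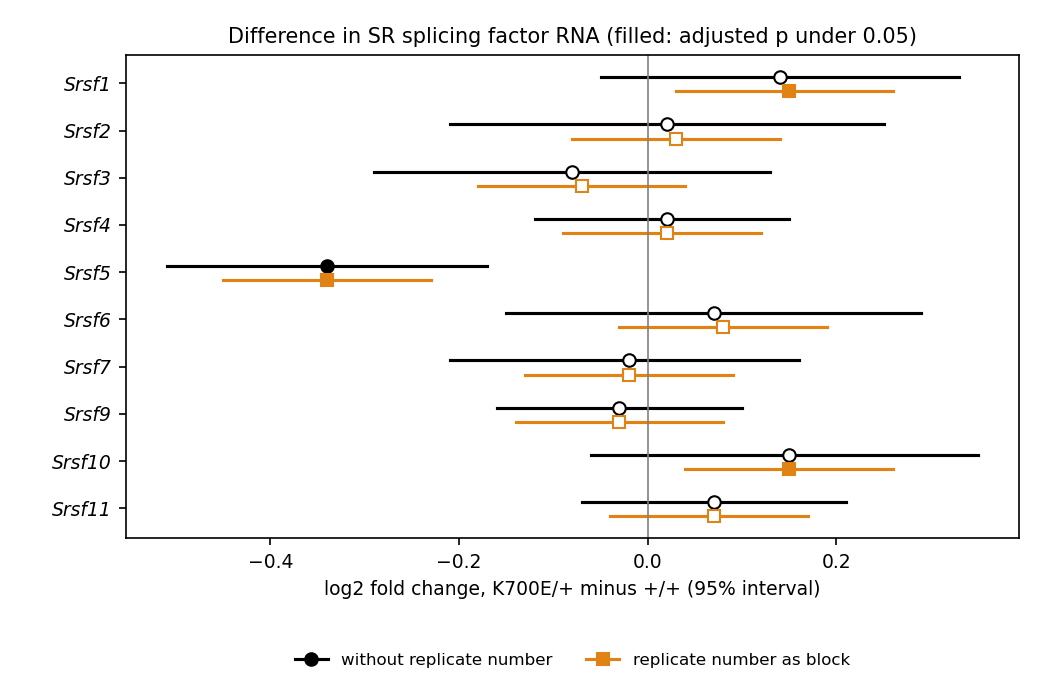
Log2 fold change of each SR gene, Sf3b1 K700E/+ minus Sf3b1 +/+ (horizontal axis), with its 95% interval, without (black circles) and with (orange squares) the replicate number as a block; filled symbols have an adjusted p under 0.05. Only Srsf5 is filled without the block, at -0.34, and Srsf1 and Srsf10 are filled with it, at 0.15 each.

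Replicate 1 had the highest level of its genotype, in both genotypes, for 8 of the 10 SR genes, or 80%. Over all tested genes the share was 24.6%. Srsf2, for example, was at 679 CPM in Sf3b1 K700E/+ replicate 1 against 594 and 588 CPM, and at 707 CPM in Sf3b1 +/+ replicate 1 against 567 and 560 CPM. The exceptions were Srsf5, whose Sf3b1 K700E/+ maximum was replicate 2, and Srsf9. The summed erythroid markers were lowest in the same libraries, at 6590 CPM against 8290 and 9230 CPM in Sf3b1 K700E/+ and at 6420 CPM against 7880 and 8000 CPM in Sf3b1 +/+ cells, and their part in the SR levels was not tested.

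Genes that act with the SR proteins were followed in 6 further lists, against a background of 21.3% higher and 23.1% lower among all tested genes. For counts with the block the background is larger, at 3471 higher and 3663 lower among the 12547 tested genes. Among kinases, phosphatases and the nuclear importer of SR proteins, 3 of 12 tested genes (13 in the list) were higher and 2 lower. Srpk1 and Srpk2, kinases that phosphorylate SR proteins in the cytoplasm, moved in opposite directions. Srpk1 was at 184, 168 and 166 CPM in Sf3b1 K700E/+ against 151, 129 and 135 CPM in Sf3b1 +/+ libraries, a log2 fold change of 0.32 (SE 0.07, adjusted p = 0.00708, edgeR). Srpk2 was at 49.5, 41.5 and 42.4 CPM against 55.8, 65.3 and 70.6 CPM, a log2 fold change of -0.52 (SE 0.1, adjusted p = 0.00275, edgeR). For both kinases the genotypes did not overlap. The kinase Dyrk1a and Ppp1cb, a catalytic subunit of protein phosphatase 1, were higher by 0.27 and 0.29. Ppp1ca, another catalytic subunit of the same phosphatase, was lower, at 373 to 394 CPM against 419 to 428 CPM (log2 fold change -0.15, adjusted p = 0.0461, edgeR), and did not pass when any 1 library was left out (-0.16 to -0.13). The nuclear kinases Clk1, Clk2, Clk3 and Clk4 did not pass, with log2 fold changes of -0.29, -0.1, -0.02 and -0.15, and Clk1 passed with the block (adjusted p = 0.000769, edgeR) and without Sf3b1 +/+ replicate 1 (-0.39, adjusted p = 0.0215, edgeR). The Clk1 value was -0.13 without Sf3b1 +/+ replicate 3.

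Among factors of early splice site recognition, 4 of 7 were higher and none lower, and with the block 4 were higher and 1 lower. The lower gene was Zrsr2, a U2af1-related factor of acceptor recognition, at 33.6 to 35.7 CPM against 37.8 to 39.2 CPM (log2 fold change -0.17, adjusted p = 0.0518, and 0.0191 with the block, edgeR). Snrnp70, the U1 protein that SR proteins contact at the donor, was at 568, 609 and 577 CPM against 415, 431 and 422 CPM (log2 fold change 0.47, SE 0.06, adjusted p = 0.000174, edgeR). U2af2 and U2af1, the subunits that bind the polypyrimidine tract and the acceptor, were higher by 0.34 and 0.24, and Snrpa of the U1 snRNP by 0.25. U2af1 no longer passed without Sf3b1 K700E/+ replicate 1 or 2 or Sf3b1 +/+ replicate 2 or 3, where its log2 fold change was 0.23, 0.23, 0.22 and 0.19. Of 10 tested SR-related coactivators (11 in the list; Srsf12 had no read), 3 were lower and none higher. These were Acin1 and Sfswap, with log2 fold changes of -0.3 and -0.27, and Srrm1 with -0.16, which did not pass when any 1 library was left out (-0.17 to -0.12).

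Export adaptors had 2 of 4 genes higher, Ddx39b by 0.28 and Nxt1 by 0.29 on the log2 scale. The export receptor Nxf1, at -0.08, did not pass. Of 8 hnRNPs, which often oppose SR proteins at the same exons, 2 were higher, Hnrnpl by 0.27 and Hnrnpc by 0.19, and 5 passed as higher with the block. Hnrnpc no longer passed without Sf3b1 K700E/+ replicate 2 (0.17) or Sf3b1 +/+ replicate 2 (0.19) or 3 (0.18). In the list of NMD and exon junction complex genes, 4 of 14 were higher and 3 lower, and with the block 4 were higher and 7 lower. Smg9 and Smg1, which form the kinase complex that phosphorylates Upf1, were higher by 0.62 and 0.46, Casc3 of the exon junction complex by 0.26, and Upf2, which bridges that complex to Upf1, was lower by 0.3 (log2 fold change -0.3). The medians of the 6 lists ran from -0.12 (NMD and exon junction complex) to 0.24 (early splice site recognition).

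For splicing, each event is a pair of paths through the assembled reads, and PSI is the share taken by the longer path once reads are scaled to path length. Of the 44 events, an insertion in Srsf5 is not a splicing event, and the 43 others reached the minimum of 10 reads, summed over the paths, in all libraries. They comprise 18 retained introns, 10 alternative donors, 7 alternative acceptors, 2 skipped exons, 2 skipped groups of exons and 4 combined types. The events come from 19 components of the assembly graph and are not independent. The largest component holds 9 events of Srsf11, and 1 component holds paths of both Srsf1 and Srsf2, so reads can be shared within them. All splice sites were annotated in 32 events, and 11 events in Srsf4, Srsf5, Srsf10 and Srsf11 had a site that is not. Matched by exon and intron length to GENCODE M21 transcripts, the shorter path of 36 events had a single place, and the longer path of 11 events occurred only in transcripts classed as NMD or retained intron. The shorter path of 22 events lay within the coding sequence of a protein-coding transcript.

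Splicing differed by genotype in 1 of the 43 events, a retained intron part in Srsf5, at an adjusted p under 0.05 and an absolute PSI difference over 0.10. Among all 17656 tested events 6.31% were called. An adjusted p under 0.05 alone was reached by 2 events (9.52% of all events), and by 6 with the block (13.4%), of which 1 was called. In 8 of the 43 events the PSI of the genotypes did not overlap, which was seen in 25.9% of all events. The PSI difference was negative in 21 of 43 events, with a median of 0.00091, whereas 59.6% of all tested events were negative, with a median of -0.011. For retained introns 7 of 18 were negative, against 66.8% of all tested retained introns. The median absolute PSI difference was 0.0177 for SR events and 0.0365 for all events.

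**Figure D3:**
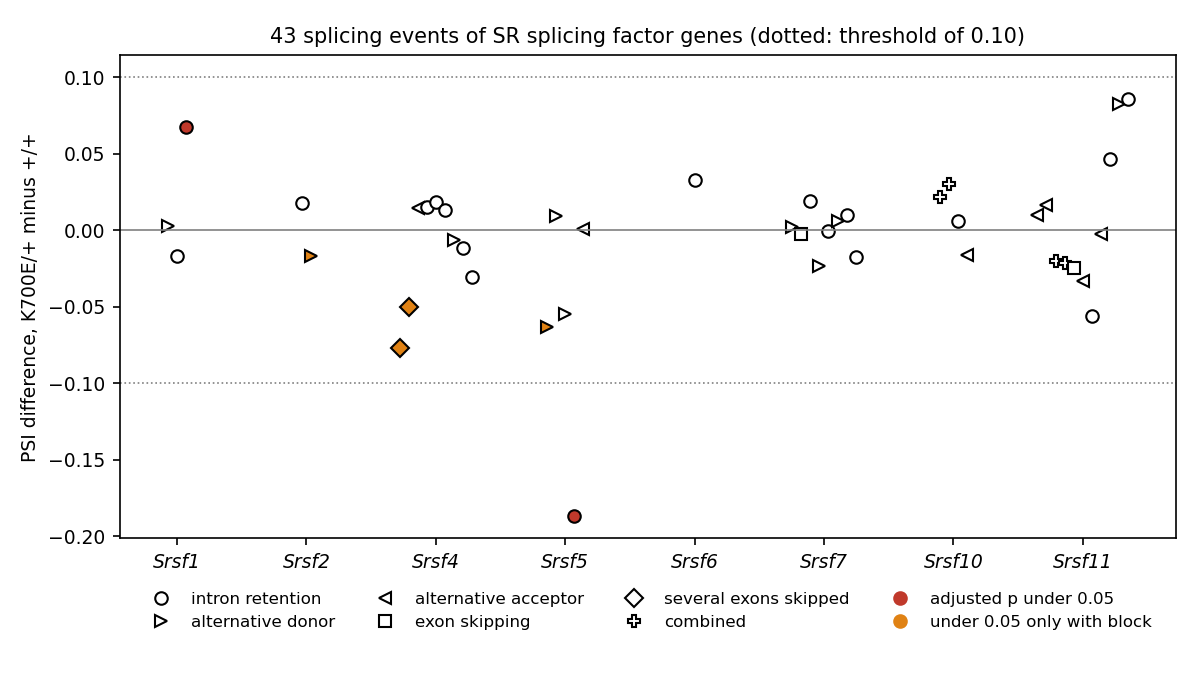
PSI difference, Sf3b1 K700E/+ minus Sf3b1 +/+ (vertical axis), of the 43 tested events, grouped by gene (horizontal axis); symbols give the event type, red an adjusted p under 0.05 and orange one reached only with the replicate block. The Srsf5 intron part at -0.187 is the single event beyond the dotted threshold of 0.10.

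The Srsf5 event (chromosome 12, 80995397 to 80995906 of GRCm39, plus strand) lies in intron 5 of the coding transcript Srsf5-202, which is 1229 bases long and separates exons of 70 and 74 bases. Its shorter path joins a donor that is not annotated, after base 797 of the intron, to the annotated acceptor of the intron and removes 432 bases. The longer path keeps these bases, as do 3 GENCODE transcripts of the retained-intron class. Sequences were taken from GENCODE M21 transcripts, and their positions are those of the event table, extended by annotated exon and intron lengths. The junction is shown first, with GT of the unannotated donor (80995407 to 80995466) and AG of the acceptor (80995809 to 80995888, ending with 20 exon bases) in capitals. The last line is the end of the upstream exon and the start of the intron (80994610 to 80994658), which the event does not cover. A transcript that reads from this exon into the intron meets a stop codon there, in capitals. It starts at intron base 7 in the reading frame of the coding transcript. Lying upstream of the unannotated donor, this stop does not separate the longer from the shorter path. GENCODE also has Srsf5-206, a processed transcript that removes the first 263 bases of the intron and continues in an exon of 376 bases. Transcripts that use this acceptor lack the stop at base 7. Whether transcripts of either path hold that stop was not tested.
Srsf5 unannotated donor: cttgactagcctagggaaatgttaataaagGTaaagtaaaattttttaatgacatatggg
Srsf5 acceptor: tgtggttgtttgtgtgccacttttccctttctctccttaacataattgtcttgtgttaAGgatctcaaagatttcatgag
Srsf5 exon end and intron start: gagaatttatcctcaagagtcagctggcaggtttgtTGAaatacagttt

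PSI of this event was 0.615, 0.571 and 0.599 in Sf3b1 K700E/+ and 0.768, 0.767 and 0.812 in Sf3b1 +/+ replicates 1, 2 and 3. The genotypes did not overlap, with means of 0.595 ± 0.0225 and 0.782 ± 0.0258 (SD, n = 3). The difference was -0.187 (adjusted p = 0.000115, edgeR), and it stayed between -0.197 and -0.172 when any 1 library was left out, with adjusted p from edgeR of at most 0.00382. At the stricter threshold of 0.20 the event is not called. The longer path had 595, 417 and 724 reads in Sf3b1 K700E/+ and 842, 603 and 1271 reads in Sf3b1 +/+ libraries. Relative to library size it was lower, with a log2 fold change of -0.82 (SE 0.21, adjusted p = 0.00648, edgeR). This path no longer passed without Sf3b1 K700E/+ replicate 2 (-0.63, adjusted p = 0.068, edgeR) or Sf3b1 +/+ replicate 3 (-0.5, adjusted p = 0.0874, edgeR). The shorter path had 57, 48 and 74 reads against 39, 28 and 45 reads, a log2 fold change of 0.5 that did not pass (adjusted p = 0.158, edgeR). Relative to library size the longer path overlapped between genotypes, with 16.9 CPM in Sf3b1 K700E/+ replicate 3 and 14.7 CPM in Sf3b1 +/+ replicate 2. Its log2 fold change stands next to a gene-level one of -0.34, and the difference between these values was not tested. PSI here compares transcripts that hold the intron sequence just upstream of the unannotated donor. It says nothing of transcripts from which the whole intron is removed.

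**Figure D4:**
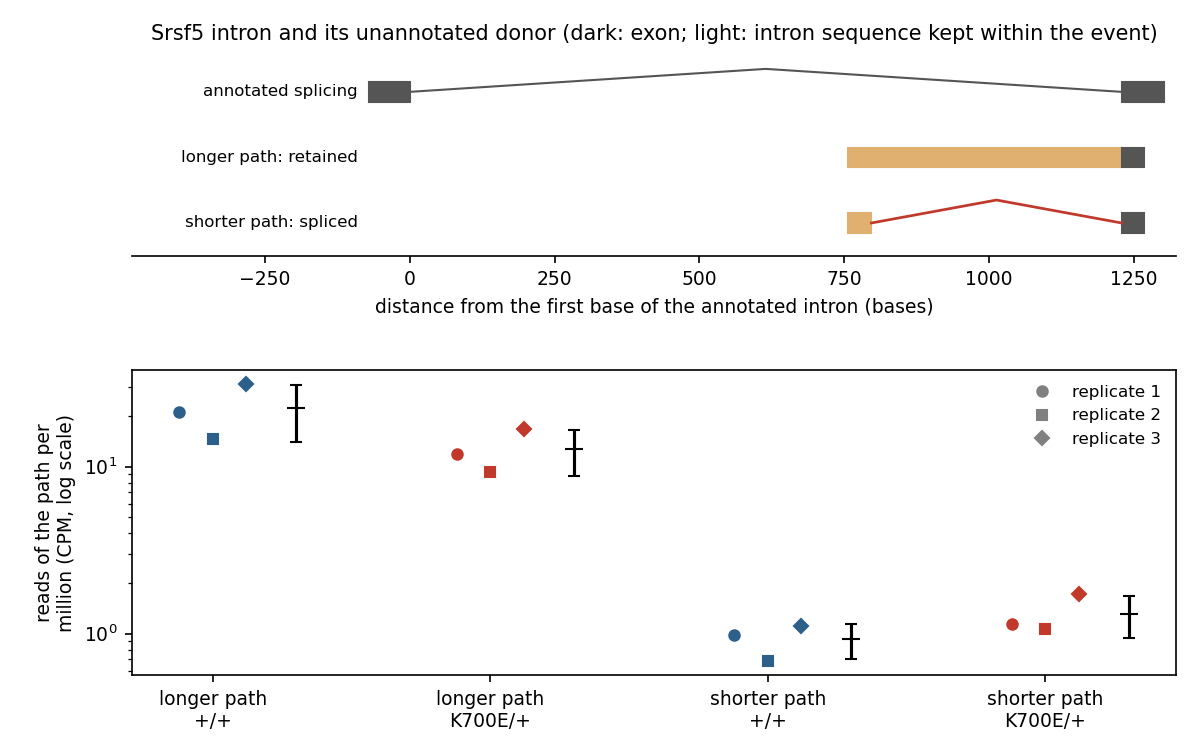
Top, the annotated Srsf5 intron and the stretch covered by the longer and shorter path, by distance in bases from the first intron base; bottom, reads of each path in CPM on a log axis by genotype and replicate, with mean and SD in black. The longer path is lower in each Sf3b1 K700E/+ library than in the Sf3b1 +/+ library of the same number.

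At the other end of Srsf5, alternative donors of the first exon showed smaller differences. The donor that adds 130 bases (80992403 to 80993389) had a PSI of 0.261, 0.285 and 0.309 in Sf3b1 K700E/+ and 0.322, 0.35 and 0.372 in Sf3b1 +/+ libraries. The genotypes did not overlap, but the difference of -0.0632 did not pass (adjusted p = 0.0847, edgeR). It passed with the block (adjusted p = 0.00309, edgeR) and without Sf3b1 +/+ replicate 1 (-0.0761, adjusted p = 0.0447, edgeR). Its longer path had a log2 fold change of -0.36 (adjusted p = 0.0282, edgeR). The shorter path of this event is in the protein-coding transcript Srsf5-203, and the longer path in the protein-coding Srsf5-205. Measured against a donor 4 bases further downstream (80992407 to 80993388), which the protein-coding transcripts Srsf5-201, Srsf5-202 and Srsf5-204 use, the PSI difference was 0.009. In that event both paths had fewer reads in Sf3b1 K700E/+ cells, by log2 fold changes of -0.36 and -0.45 for the longer and shorter path (adjusted p = 0.0273 and 0.00594, edgeR). A further pair of acceptors, 3 bases apart at the last intron (80996338 to 80996531), had a PSI of 0.171 to 0.174 in Sf3b1 K700E/+ and 0.167 to 0.179 in Sf3b1 +/+ libraries. Its shorter path had a log2 fold change of -0.33 (adjusted p = 0.0331, edgeR). The Srsf5 event at 80993076 to 80993386, with a PSI difference of -0.0545, rested on as few as 24 reads per library and on a pair of donors that are not annotated.

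Srsf1 had the second event with an adjusted p under 0.05. It is an 881-base intron (chromosome 11, 87940883 to 87941842) inside the last exon of the protein-coding transcript Srsf1-201, and it is removed in transcripts classed as NMD or retained intron. PSI was 0.934, 0.882 and 0.886 in Sf3b1 K700E/+ and 0.894, 0.793 and 0.812 in Sf3b1 +/+ libraries. The groups overlap, since Sf3b1 +/+ replicate 1 lies above Sf3b1 K700E/+ replicates 2 and 3, while 3 of 3 same-number pairs were higher in Sf3b1 K700E/+ cells. The difference of 0.0675 (adjusted p = 0.0109, edgeR) is below the threshold of 0.10, so the event is not called. It no longer passed without Sf3b1 K700E/+ replicate 1 (0.0509, adjusted p = 0.137, edgeR), Sf3b1 +/+ replicate 2 (0.0474, adjusted p = 0.118, edgeR) or Sf3b1 +/+ replicate 3 (0.0572, adjusted p = 0.0746, edgeR). With the block its adjusted p was 1.89e-07 (edgeR). The spliced path, which leads to the forms classed as NMD or retained intron, had 93, 130 and 126 reads in Sf3b1 K700E/+ and 116, 167 and 191 reads in Sf3b1 +/+ libraries, a log2 fold change of -0.61 (SE 0.2, adjusted p = 0.028, edgeR). That fall did not pass without the same 3 libraries, one at a time (-0.41, -0.56 and -0.45). The retained path had between 7768 and 15949 reads per library, and its log2 fold change of 0.22 (adjusted p = 0.214, edgeR) passed with the block (adjusted p = 0.00347, edgeR). A nearby intron of 196 bases, retained in Srsf1-201 and removed in the coding transcripts Srsf1-202 and Srsf1-205, had a PSI of 0.085 to 0.106 against 0.093 to 0.128 (difference -0.017, adjusted p = 0.382, edgeR).

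Srsf4 carries, within its first intron of 17336 bases, extra exons, and GENCODE has exons of NMD and retained-intron transcripts there. A part of the first of them, an exon of 207 bases (chromosome 4, 131611587 to 131611793, plus strand), is shown (131611669 to 131611711) because a stop codon, in capitals, starts at its base 113 in the frame of the upstream coding exon.
Srsf4 exon: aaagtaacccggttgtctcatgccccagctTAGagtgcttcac

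The path with exons of 207, 137 and 174 bases is in no GENCODE M21 transcript, and the acceptor of its 137-base exon is not annotated. GENCODE has an exon of 184 bases in its place. The PSI of this path was 0.28, 0.334 and 0.289 in Sf3b1 K700E/+ and 0.394, 0.369 and 0.371 in Sf3b1 +/+ libraries. All Sf3b1 K700E/+ libraries were below all Sf3b1 +/+ libraries. The difference of -0.0769 did not pass (adjusted p = 0.0854, edgeR), and passed with the block (adjusted p = 0.0165, edgeR). A path that keeps the intron between the exons of 137 and 174 bases, and shares most of its reads and the unannotated acceptor, differed by -0.0503 (adjusted p = 0.114, and 0.0284 with the block, edgeR). Reads of the 3-exon path numbered 651, 597 and 477 against 712, 682 and 602, a log2 fold change of -0.4 (SE 0.12, adjusted p = 0.0207, edgeR), and those of the second path gave -0.37 (adjusted p = 0.0385, edgeR). The skipped path, which joins the coding exons, had a log2 fold change of 0.11 (adjusted p = 0.664, edgeR). The 3-exon path no longer passed without Sf3b1 K700E/+ replicate 3 (-0.32) or Sf3b1 +/+ replicate 1 (-0.33) or 2 (-0.38), and the second path did not pass without any library other than Sf3b1 +/+ replicate 3 (-0.41 to -0.28). The spliced path of the 638-base intron between the extra exons (131612763 to 131613481) had a log2 fold change of -0.52 (adjusted p = 0.0368, edgeR), which did not pass when any 1 library was left out (-0.59 to -0.44). At the gene level Srsf4 had a log2 fold change of 0.02.

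**Figure D5:**
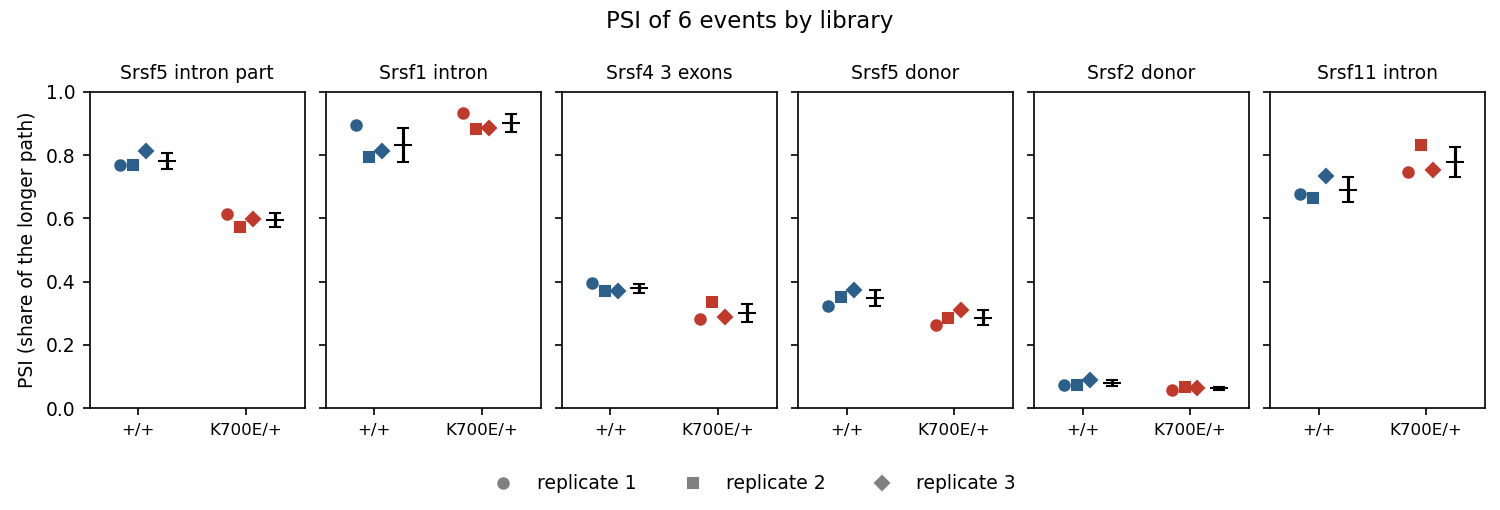
PSI, the share of the longer path (vertical axis, 0 to 1), of 6 events by genotype and replicate, with mean and SD in black. The Srsf5 intron part falls from 0.767 to 0.812 in Sf3b1 +/+ to 0.571 to 0.615 in Sf3b1 K700E/+ libraries, while the other events differ by less than 0.10.

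Srsf2 showed the remaining event that passed with the block. It is a donor on the minus strand (chromosome 11, 116741748 to 116742887) whose use adds 373 bases in the longer path of the event. In the GENCODE transcripts Srsf2-202 (classed as NMD) and Srsf2-206 (protein-coding), this donor ends an exon of 104 bases that follows an intron of 269 bases. PSI was 0.058, 0.065 and 0.064 in Sf3b1 K700E/+ and 0.074, 0.073 and 0.09 in Sf3b1 +/+ libraries. The genotypes did not overlap, and the difference was -0.0166 (adjusted p = 0.143, and 0.0118 with the block, edgeR). The other Srsf2 event, a retained intron of 502 bases, had a PSI of 0.816 to 0.877 against 0.794 to 0.867. Srsf6 had 1 event, a 343-base intron that is spliced in an NMD transcript, with a PSI of 0.519 to 0.564 against 0.44 to 0.59.

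The largest differences that were not called, besides Srsf4, were in Srsf11 and went in the other direction. An intron of 2493 bases (chromosome 3, 157729830 to 157732402, minus strand), spliced in NMD transcripts, had a PSI of 0.746, 0.832 and 0.754 in Sf3b1 K700E/+ and 0.676, 0.664 and 0.735 in Sf3b1 +/+ libraries. The genotypes did not overlap, with a difference of 0.0857 (adjusted p = 0.186, and 0.114 with the block, edgeR). A donor inside the same intron gave 0.0823 with nearly the same reads. Both rest on a shorter path with 14 to 32 reads per library. The 9 other Srsf11 events had PSI differences between -0.0558 and 0.0464.

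Srsf7 and Srsf10 had no event with an adjusted p under 0.05 in either fit. The 8 Srsf7 events, around the region between its coding exons that holds several introns of alternative length, had PSI differences between -0.0233 and 0.019. Its skipped exon of 36 bases had a PSI of 0.84 to 0.851 in Sf3b1 K700E/+ and 0.834 to 0.855 in Sf3b1 +/+ libraries. The 4 Srsf10 events had differences between -0.0165 and 0.0299. In Srsf10 the longer path of an event that uses an alternative donor and acceptor (chromosome 4, 135585682 to 135589125), found in noncoding processed transcripts, had 6724, 5697 and 3677 reads against 4389, 3166 and 3147. Its log2 fold change was 0.39 (adjusted p = 0.0637, and 0.000118 with the block, edgeR), while the spliced path of the coding transcripts had 0.07 (adjusted p = 0.71, edgeR).

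Over all events, 9 of 86 paths had reads that differed by genotype, and all 9 were lower in Sf3b1 K700E/+ cells. That direction did not hold for all passing paths when some libraries were left out. Without Sf3b1 K700E/+ replicate 3, 3 paths were lower and 3 higher, and without Sf3b1 +/+ replicate 1, 5 were lower and 4 higher. Without the replicate 1 libraries of both genotypes 3 were lower and 3 higher. The higher paths were 3 of Srsf10 in each case, plus 1 of Srsf1 without Sf3b1 +/+ replicate 1. Of all 35312 paths 22.7% passed, and 10.9% passed as lower. Srsf5 held 5 of the 9 paths, Srsf4 3 and Srsf1 1. These 9 are not independent. The longer paths of both Srsf5 donor events use the same junction, and the longer paths of both skipped groups of Srsf4 exons share most of their reads. Path reads are scaled to the library and not to the gene, so they also carry a gene-level difference such as the -0.34 of Srsf5. Its share in the path values was not tested. With the block 24 paths passed (30.8% of all paths), 16 lower and 8 higher, and 16% of all paths passed as higher with it. The 8 higher paths belonged to Srsf11 (4), Srsf10 (3) and Srsf1 (1), and the lower ones to Srsf4 (8), Srsf5 (6), Srsf1 (1) and Srsf2 (1). Leaving out 1 library gave between 3 passing paths, without Sf3b1 +/+ replicate 2, and 9, and 5 without Sf3b1 K700E/+ replicate 2. Of the Srsf5 paths, the longer path of both donor events did not pass without Sf3b1 K700E/+ replicate 1 or 3 or Sf3b1 +/+ replicate 2 (-0.33 to -0.25). The shorter path of the donor event at 80992407 did not pass without Sf3b1 +/+ replicate 2 (-0.32), and the shorter acceptor path did not pass without Sf3b1 K700E/+ replicate 2 or 3 or Sf3b1 +/+ replicate 1 or 2 (-0.37 to -0.24).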

How the data were processed

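RNA-sequencing of 3 Sf3b1 K700E/+ and 3 Sf3b1 +/+ libraries at 24 h was used. Per the labels, the authors selected poly(A) RNA, used a stranded kit and aligned with STAR 2.7.9 on GRCm39. They deposited raw counts per gene. The annotation, the strand setting and the handling of reads with several matches are not given in the sources used here. DESeq2 1.30.1 is named for the authors' own comparisons, which were not used. From KisSplice, the authors deposited packed read numbers for the paths of each splicing event and a PSI per library.

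Counts were filtered (filterByExpr), scaled by TMM and tested in R 4.3.3 with edgeR 4.0.16 (quasi-likelihood F test, Benjamini-Hochberg over all tested features). Reads of the longer path, minus those counted at both of its junctions, were set against reads of the shorter path, with read files of a library summed. Events needed 10 reads in every library. The path by genotype term was tested with 1 term per library in place of KissDE, with an absolute PSI difference over 0.10 for a call. Path reads were tested alone with the scaling of the gene counts. Over 258 values of SR events, this PSI correlated with the deposited one (Pearson r = 0.993, across events that are not independent). The gene, event and path tests without the block were also run on simulated data with independently drawn libraries. Those data lack the correlation between same-numbered libraries, and their gene changes were larger than those of the SR genes. They therefore do not show how the tests perform on the SR results.

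All libraries of a genotype differed beyond sampling (chi-square per degree of freedom 8.07 to 35.6). Deviations from genotype means over 8771 genes at 5 CPM or more correlated between same-numbered libraries (0.63, 0.48 and 0.48), so the numbers were taken to pair them. Replicate 2 of one genotype and replicate 3 of the other also correlated (0.25 and 0.2). The gene symbols fix the members without a measured value, but the family, the lists and the tests were chosen with earlier results of these data known. All members are named, of each further list at most 4 genes with the lowest adjusted p plus genes named after their values were seen (the Clk kinases, Nxf1, Ppp1ca, Zrsr2), and of events those called, the 3 largest differences not called and others chosen after their values were seen. Alternatives were the scaling, DESeq2 1.42.0, limma 3.58.1 on logit PSI, filters, thresholds, the reads and events counted, the replicate block and leaving out libraries.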

Additional observations from a re-analysis of the deposited data

How the results depend on the processing

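Srsf5 passed at the gene level, with a log2 fold change between -0.39 and -0.28, under all alternatives run. The number of SR genes passing was 3 in place of 1 with the replicate block and without the replicate 1 libraries of both genotypes (an alternative added after the data were seen), and 1 to 3 when 1 library was left out, with 3 only without Sf3b1 +/+ replicate 1. The Srsf5 intron part was the single called event under every alternative but the PSI threshold of 0.20, which left 0 events, and leaving out 1 library gave 1 to 1 called events. Paths that passed rose from 9 to 24 with the block and ran from 3 to 9 when 1 library was left out. Paths passing as higher, 0 of the 9, were 8 of the 24 with the block, 3 of 6 without Sf3b1 K700E/+ replicate 3, 4 of 9 without Sf3b1 +/+ replicate 1 and 3 of 6 without both replicate 1 libraries. The replicate block changed no other call among the SR genes and the SR events named, beyond those given with it above. Counted on junction reads of the longer path, the Srsf5 donor that adds 130 bases also passed (adjusted p = 0.0152, edgeR). Log2 fold changes of several genes near 0 changed sign, without passing. Leaving out 1 library gave 0.09 to 0.22 for Srsf1, 0.08 to 0.24 for Srsf10, 0.01 to 0.19 for Srsf6, 0.04 to 0.11 for Srsf11, -0.04 to 0.14 for Srsf2, -0.14 to 0.03 for Srsf3, -0.01 to 0.05 for Srsf4, -0.07 to 0.07 for Srsf7, -0.06 to 0.01 for Srsf9 and -0.13 to 0.05 for Clk3. The sign changed in Srsf2 (-0.04, -0.02 and -0.04 without Sf3b1 K700E/+ replicate 1, Sf3b1 +/+ replicate 2 and Sf3b1 +/+ replicate 3), Srsf3 (0.03 without Sf3b1 +/+ replicate 1), Srsf4 (0 and -0.01 without Sf3b1 K700E/+ replicate 1 and Sf3b1 +/+ replicate 3), Srsf7 (0.01, 0.07 and 0.03 without Sf3b1 K700E/+ replicate 3, Sf3b1 +/+ replicate 1 and both replicate 1 libraries), Srsf9 (0.01 without Sf3b1 +/+ replicate 2) and the kinase Clk3 (0.05, 0.04 and 0.05 without Sf3b1 K700E/+ replicate 1, Sf3b1 +/+ replicate 2 and Sf3b1 +/+ replicate 3). The Srsf1 intron did not pass with limma on logit PSI (adjusted p = 0.335), and Srrm1 did not pass with DESeq2's size factors, with DESeq2 or without the filter on low counts (adjusted p = 0.0639, 0.088 and 0.135), nor did Ppp1ca (0.0675, 0.0873 and 0.161). The cause of these differences was not tested. The number of libraries, 3 of 1 clone per genotype, limits the precision of all values.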
